A study of Mus musculus with 2 samples.

Results

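Mucins and the proteins that glands of the airway, nose and mouth secrete alongside them were examined in 2 rhabdoid tumors (RT) of the mouse. The set held 37 protein-coding genes of the 55416 genes in the count table. It was made of the mucins (rows whose symbol is Muc plus a digit) and the BPI fold genes (symbols starting with Bpif), to which Chil1, Chil3, Chil4, Chia1, Pigr, Tff1, Tff2, Tff3, Agr2, Dmbt1, Scgb1a1, Scgb3a1 and Aqp5 were added by name. The set was chosen by symbol, but it was selected on measured values as well, since the counts of Muc5b and Chil4 in these same libraries were known when the other genes were put beside them. The difference between the libraries is therefore given below as a description of the members, with no test.

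RT are malignant tumors marked by the absence of Smarcb1, which belongs to the SWI/SNF complex that moves nucleosomes. Both tumors came from Dppa3-cre::Smarcb1 mice, which the methods describe as heterozygous for a floxed Smarcb1 allele, with Cre knocked in at Dppa3, a gene of primordial germ cells. The label of the first tumor is intracranial, at the trigeminal nerve, and that of the second is extracranial, in the face at the maxilla. Both were classified as MYC, and no age is given in the labels. There was 1 library per location and no normal tissue beside them, so no value has a replicate error and location cannot be told apart from the individual tumor or from the tissue taken with it. The 2 libraries, called intracranial and extracranial after these labels, held 34545846 and 26915696 read counts. Where 2 counts of a gene are given, the intracranial one comes first. Levels are in CPM, the counts of a gene relative to the scaled library total, and every interval is a 95% interval that covers nothing beyond counting error. A count of 3 or less was taken as background. Where a gene had 0 counts in the extracranial library, its fold is given as "at least" against a floor of 3 counts in that library, followed by the nearer end of its 95% interval, which is lower because the interval allows slightly more than 3 counts. Smarcb1 itself had 365 and 530 counts. Genes of stratified squamous epithelium, the lining of mouth and skin, were at 23761 CPM in the intracranial library and at 3.14 CPM in the extracranial one, so the names stand for the labels and not for a tissue that was checked. Whether the 2 labels were exchanged could not be tested with these files, and an exchange would turn the name of every value below.

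Gel-forming mucins are very long glycoproteins that link into the polymers of mucus, whereas membrane mucins stay anchored on the cell surface. Mucous cells of the submucosal, nasal and minor salivary glands release the gel-forming kind, and serous cells of the same glands release antimicrobial proteins. BPIF proteins share the fold of the bactericidal/permeability-increasing protein and are found in airway and oral secretions. Trefoil factors are small peptides released together with mucins, and the chitinase family holds both true chitinases and chitinase-like lectins without enzyme activity.

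The start regions of the most abundant chitinase-like and BPIF genes are shown first, because the values below turn on neighbors of 1 family that differed widely in level. RefSeq promoters (GRCm38.p6, 250 bases before to 50 after the annotated start) were found for 28 of the 37 genes. In each line, 200 bases before and 20 from the start are printed from 5′ to 3′ on the strand of the gene. Capitals mark matches, on either strand, to the TATA box TATAAA, to the forkhead core TGTTTGC and to CCACGT, a core bound by XBP1.
Chil4, chr3:106219460-106219679, minus strand: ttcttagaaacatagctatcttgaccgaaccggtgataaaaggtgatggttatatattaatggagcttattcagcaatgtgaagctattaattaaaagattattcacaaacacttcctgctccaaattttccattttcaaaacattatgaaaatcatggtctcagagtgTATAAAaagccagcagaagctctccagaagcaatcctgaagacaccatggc
Chil3, chr3:106167545-106167764, minus strand: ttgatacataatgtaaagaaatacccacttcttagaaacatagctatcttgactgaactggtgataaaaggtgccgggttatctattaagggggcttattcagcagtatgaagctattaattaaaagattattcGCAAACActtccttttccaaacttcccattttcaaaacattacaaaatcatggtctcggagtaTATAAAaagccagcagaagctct
Bpifb2, chr2:153874845-153875064, plus strand: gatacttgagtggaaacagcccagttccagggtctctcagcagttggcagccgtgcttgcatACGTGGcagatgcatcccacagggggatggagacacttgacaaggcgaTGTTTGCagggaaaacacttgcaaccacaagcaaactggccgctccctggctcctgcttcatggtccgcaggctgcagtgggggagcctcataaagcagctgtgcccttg
Bpifb1, chr2:154190618-154190837, plus strand: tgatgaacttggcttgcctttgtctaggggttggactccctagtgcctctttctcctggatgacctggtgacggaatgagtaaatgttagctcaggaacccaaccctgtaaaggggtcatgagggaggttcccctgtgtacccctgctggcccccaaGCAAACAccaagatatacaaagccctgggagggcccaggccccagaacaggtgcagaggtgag

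The full promoters of Chil4 and Chil3 were near copies of each other, with 251 of 273 aligned positions identical (91.9%). Their TATA boxes began at -31 and -3 from the annotated start, so the 2 annotated starts lie at different points of the shared sequence. The forkhead core TGTTTGC was present in 4 of the 28 member promoters, those of Bpifb2 (at -90 from the start), Chil3 (-66), Scgb3a1 (-55) and Bpifb1 (-43), and in 5.04% of all 27025 promoters searched. TGTTTAC, the other form of the core, occurred only in Muc20 (3.55% of all promoters). TATAAA was found in 9 members against 14.2% of all promoters, the AP-1 site TGANTCA in 6 against 7.93%, CCACGT in 2 against 8.32% and the E-box CACGTG, which overlaps CCACGT in the letters CACGT, in 2 against 7.24%. Each match says only that the letters are present in these windows.

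The 37 genes together had 165018 counts in the intracranial library, or 4749 CPM (4726 to 4772) and 0.478% of its counts. In the extracranial library they had 632 counts, or 23.6 CPM (21.8 to 25.5) and 0.00235%. Of the 37 genes, 32 were above 3 counts in the former and 7 in the latter. The number of 0 counts in the extracranial library was 22, and 19 of these genes were above background in the other. In bulk RNA, fewer cells of a type and less RNA per cell cannot be told apart.

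A gene was called where its ratio between the libraries lay beyond 4-fold over the whole of its interval, among genes with 10 or more counts over both libraries. Of the 28 members with that many counts, 20 were called higher in the intracranial library and 0 in the other. Over all 21977 genes with enough counts, 5.41% were called higher in the intracranial library and 1.78% higher in the extracranial library. Since the rule rests in part on this contrast, and most members reached 10 counts through the intracranial library alone, nothing is read from that share. The median log2 ratio, extracranial over intracranial, was -5.40 over the 32 members above background in either library and -0.04 over the 24490 genes of the table above background.

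**Figure D1:**
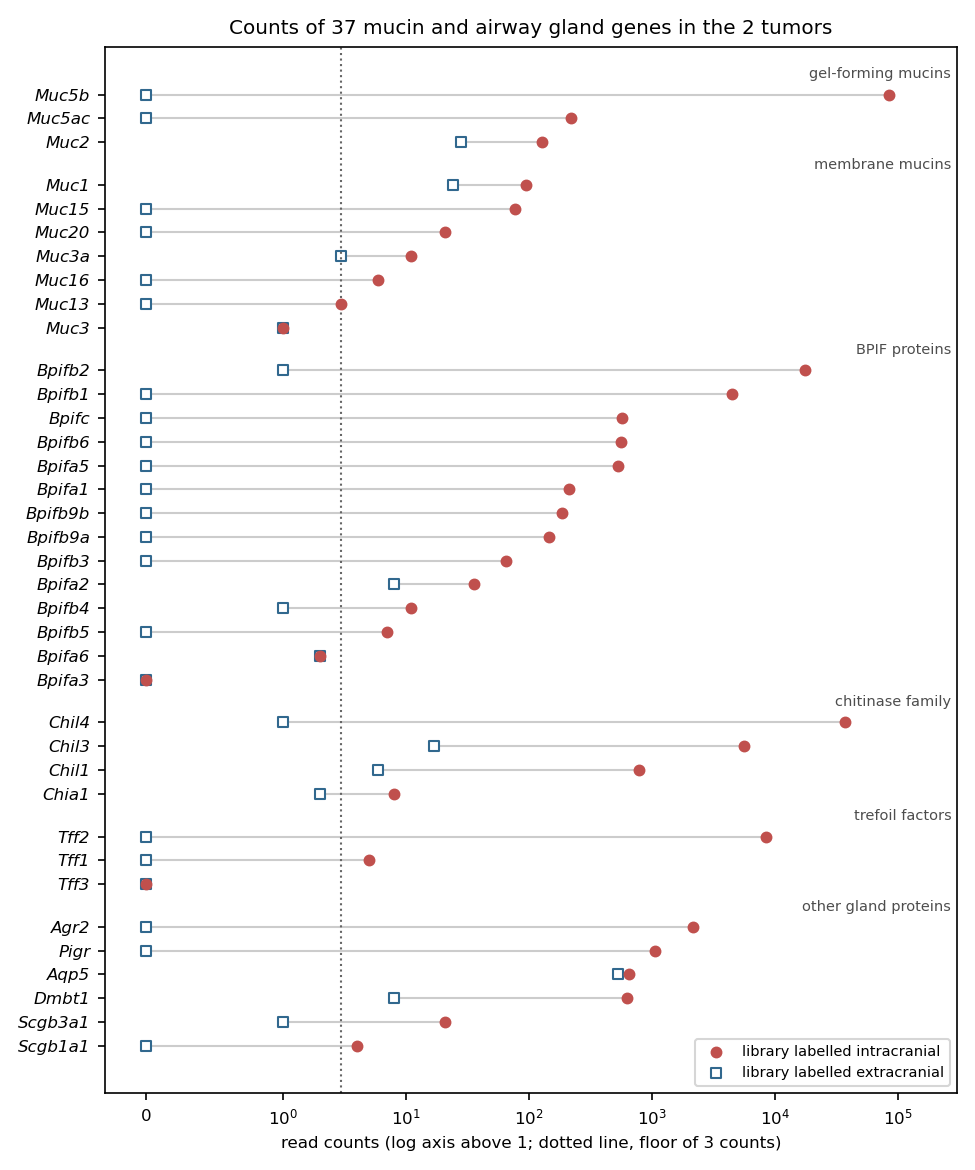
Read counts of the 37 genes by family, on a log axis above 1 count, with filled circles for the intracranial library, open squares for the extracranial library and a dotted line at 3 counts. Muc5b at 83812 and 0 counts is the widest pair, and Aqp5 at 653 and 529 is the closest pair above 10 counts.

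Among the 3 gel-forming mucins of the set, Muc5b was by far the most abundant. Muc5b (ENSMUSG00000066108), the main mucin of airway and salivary mucous glands, had 83812 counts in the intracranial library and 0 in the other. Its level of 2412 CPM (2396 to 2428) placed it at position 25 among all genes of that library, and it was at least 21515-fold higher there against the floor (interval from 17497-fold). Muc5ac, the mucin of surface goblet cells and of the gastric pit, had 219 and 0 counts and was at least 56.2-fold higher in the intracranial library (interval from 45.3-fold). Muc2, the mucin of intestinal goblet cells, was present in both, at 127 and 28 counts. Its log2 ratio was -1.80 (-2.45 to -1.21), and it was not called. The balance of these 3 genes thus differed. Muc5b held 99.6% of their counts in the intracranial library, and Muc2 was the only one detected in the extracranial library. No member carried the name Muc4, Muc6 or Muc19, and nothing is said here about those mucins.

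The 7 membrane mucins were low in both libraries, at 6.16 and 1.05 CPM in sum. Muc1, found on most glandular epithelia, had 95 counts in the intracranial library and 24 in the other, with a log2 ratio of -1.61 (-2.32 to -0.95), which was not called. Muc15 had 77 and 0 counts and Muc20 had 21 and 0, and these were the 2 called members of the family. Muc20 was the called gene nearest to the limit, since its interval ended at 4.01-fold, and it was no longer called with DESeq2 or upper quartile scaling. Muc3a had 11 and 3 counts, and its interval of -3.98 to 0.42 included equal levels. Muc16, the mucin of the ocular and airway surface, had 6 and 0 counts, too few to be tested. Muc13 (3 and 0) and Muc3 (1 and 1) were at background in both.

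BPIF genes, 14 in number, reached 693.9 CPM in the intracranial library and 0.448 CPM in the other, where they had 12 counts in all. Bpifb2 (ENSMUSG00000027481) led with 17364 counts against 1, which gave a log2 ratio of -13.71 (-19.01 to -11.23), or -12.12 with the single count set to the floor. Bpifb1 (ENSMUSG00000027485), a secreted protein of mucous cells in the upper airway, had 4428 counts against 0 and was at least 1137-fold higher in the intracranial library (interval from 924-fold). Both were well above the rest of the family, whose other members had 566 counts or fewer.

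Next in order were Bpifc with 566 counts, Bpifb6 with 558 and Bpifa5 with 533, each against 0 in the extracranial library. Bpifa1, also known as SPLUNC1, an antimicrobial surfactant protein of the upper airway, had 210 and 0 counts. Bpifb9b had 185 and 0 counts and Bpifb9a 146 and 0, and Bpifb3 had 65 and 0. The 7 genes were at least 145-fold, 143-fold, 137-fold, 53.9-fold, 47.5-fold, 37.5-fold and 16.7-fold higher in the intracranial library, respectively. Their intervals began at 118-fold, 116-fold, 111-fold, 43.5-fold, 38.2-fold, 30.1-fold and 13.2-fold in the same order. Bpifb9a and Bpifb9b are near copies, whose transcripts shared 55% and 62.5% of their 72-base windows, the length of a read, so the split of reads between the pair is uncertain. Their promoters were also 95.2% identical.

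Bpifa2, the parotid secretory protein, was the only BPIF gene above background in the extracranial library. It had 36 and 8 counts and a log2 ratio of -1.79 (-3.11 to -0.66), and was not called. Bpifb4 had 11 and 1 counts (-3.08, with an interval of -8.51 to -0.30) and was not called either. Bpifb5 had 7 and 0 counts and was not tested, while Bpifa6 (2 and 2) and Bpifa3 (0 and 0) were at background. In all, 9 of the 11 BPIF genes with enough counts were called.

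The 4 chitinase family genes summed to 1256 and 0.972 CPM. Chil4 (ENSMUSG00000063779), also called Ym2, a chitinase-like protein of epithelia, had 37227 counts in the intracranial library, at position 97 of all genes, and 1 count in the other. Its log2 ratio was -14.81 (-20.11 to -12.33), and -13.22 with the single count, which is at background, set to the floor. Chil3 (ENSMUSG00000040809), also called Ym1, which macrophages and neutrophils secrete as well, had 5601 and 17 counts and a log2 ratio of -7.99 (-8.77 to -7.31). The intervals of the pair did not overlap. Between the transcripts of these 2 genes, 5.7% of the 72-base windows of Chil4 and 14.4% of those of Chil3 were shared, which leaves most of their length distinct.

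Chil1, the mouse counterpart of human YKL-40, had 789 counts in the intracranial library and 6 in the other, with a log2 ratio of -6.66 (-8.11 to -5.53). Chia1, the acidic chitinase and the only true enzyme of the 4, had 8 and 2 counts and was not called (-1.62, -4.90 to 0.70). Of the 3 chitinase-like lectins, Chil4 and Chil3 were thus abundant in the intracranial library. Chil1 was lower there, at 22.7 CPM and position 7588 of all genes, and the enzyme was close to background in both libraries.

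Of the 3 trefoil factors, only Tff2 was abundant. Tff2 (ENSMUSG00000024028), the trefoil peptide of mucous neck and gland cells, had 8396 and 0 counts and was at least 2155-fold higher in the intracranial library (interval from 1752-fold). Tff1, typical of gastric surface cells, had 5 and 0 counts, and Tff3, typical of goblet cells, had 0 in both. The floor of 3 counts is 0.0863 CPM in the intracranial library, against 241.6 CPM (236.5 to 246.9) for Tff2.

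The other gland proteins included the member that departed most from the pattern. Agr2, a disulfide isomerase of the endoplasmic reticulum that mucin production requires, had 2143 and 0 counts and was at least 550-fold higher in the intracranial library (interval from 447-fold). Pigr, the receptor that carries polymeric immunoglobulins across glandular epithelium, had 1061 and 0 counts and was at least 272-fold higher there (interval from 221-fold). Dmbt1, a scavenger receptor protein of saliva and mucus, had 627 and 8 counts and a log2 ratio of -5.92 (-7.13 to -4.93). The secretoglobins of club and goblet cells were scarce. Scgb3a1 had 21 and 1 counts (-4.02, -9.39 to -1.38) and was the gene just outside the limit, and Scgb1a1 had 4 and 0.

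Aqp5, the water channel of serous acini in salivary, lacrimal and airway glands, had 653 counts in the intracranial library and 529 in the other. This corresponds to 18.8 and 19.8 CPM and a log2 ratio of 0.07 (-0.10 to 0.24), an interval that includes equal levels and stays well within 4-fold. Aqp5 took 83.7% of all member counts in the extracranial library. Without it, the other 36 genes had 103 counts there, which is 3.85 CPM (3.14 to 4.67), and 4730 CPM in the intracranial library.

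**Figure D2:**
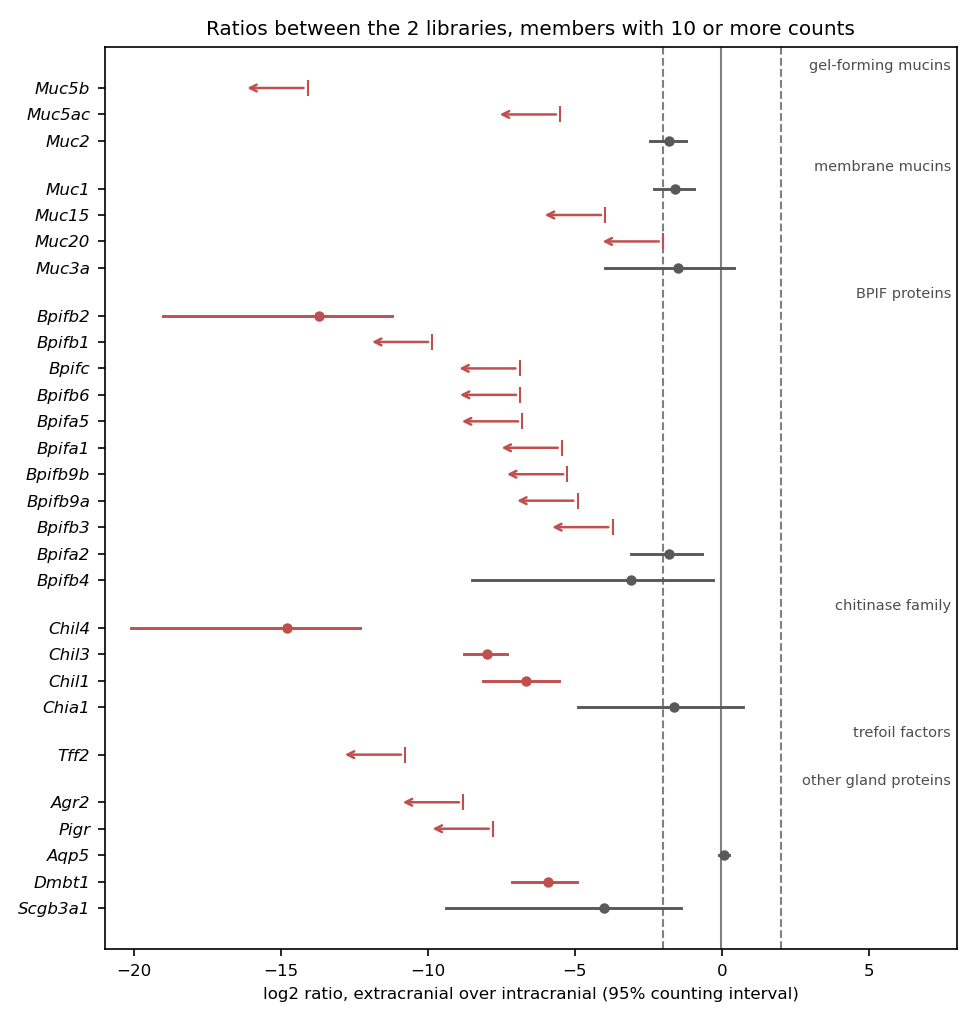
Log2 ratios, extracranial over intracranial, of the 28 members with 10 or more counts, with points and bars for the ratio and its 95% counting interval and arrows for genes at 0 counts in the extracranial library, whose interval has only an upper end (tick). Dashed lines mark 4-fold, the solid line the median of all genes (-0.04), and red the 20 called genes, all of them left of the dashed line, while Aqp5 lies at 0.07.

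The counts were concentrated in few genes. Muc5b held 50.8% of the member counts of the intracranial library, and Muc5b, Chil4, Bpifb2, Tff2, Chil3 and Bpifb1 left 8190 counts to the other 31 genes. With Muc5b left out, the members summed to 2337 CPM in that library. Because long transcripts yield more reads, the members were also ordered by CPM per kilobase of annotated exon. Counts, shares of counts and positions among all genes take no account of transcript length. On that scale Tff2 was the highest, at 414 CPM per kilobase, followed by Chil4 at 380, Bpifb2 at 239, Muc5b at 161 and Chil3 at 98.8. Agr2 (47.8) and Bpifb1 (35.2) came next, and no other member exceeded 14.1, the value of Bpifa5. Neighbors in this order differed by more than counting error down to Bpifb1, although the error of the exon lengths was not measured. In the extracranial library, Aqp5 stood at 7.61 CPM per kilobase, close to its 7.23 in the other, and the next member was Chil3 at 0.389.

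Many of the members lie side by side in the genome, and in each such array 1 gene dominated. The 13 Bpif genes on chromosome 2 are all on the plus strand with gaps of less than 1 Mb. Within this array Bpifb2, at one end, held 73.7% of the counts in the intracranial library, and per kilobase it was 6.78 times the next gene, Bpifb1, which lies 10th in line. The 5 genes between Bpifb6 and Bpifa1, Bpifb3, Bpifb4, Bpifa6, Bpifa2 and Bpifa3, each had 65 counts or fewer, so the abundant genes were not contiguous.

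On chromosome 7, where Muc2, Muc5ac and Muc5b follow each other, Muc5b stood 275 times above Muc5ac per kilobase. On chromosome 17, Tff2 lies between Tff3 and Tff1 and held 99.9% of the counts of the 3 genes. On chromosome 3, Chil4 held 86.9% and Chil3 13.1% of the counts, and Chil4 was 3.85 times higher than Chil3 per kilobase. The promoters of this pair are the near copies printed above.

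**Figure D3:**
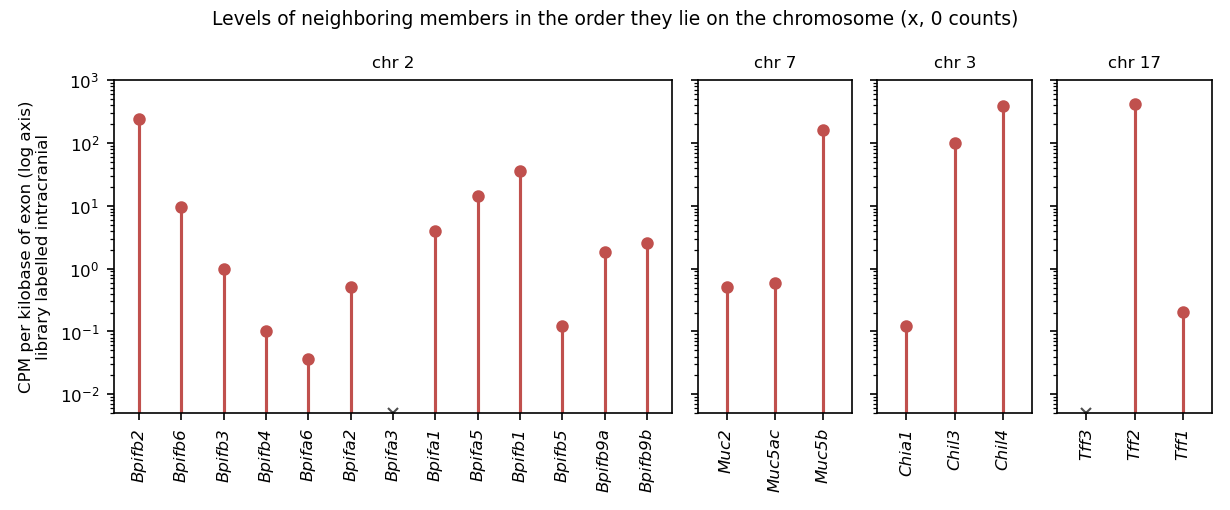
Levels of the members in 4 gene arrays in the intracranial library, in CPM per kilobase of exon on a log axis, ordered as they lie on the chromosome, with a cross for genes at 0 counts. Bpifb2 (239), Muc5b (161), Chil4 (380) and Tff2 (414) each stand above their neighbors.

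Lists of related genes were read beside the members, and they were written with earlier results of these data known. For every list and marker set below, the share called over all genes was 5.41% higher in the intracranial library and 1.78% in the other. A listed gene could also reach 10 counts through the intracranial library alone, so nothing is read from the numbers called. Among 24 regulators and partners of mucous cells, 8 of 18 with enough counts were called higher in the intracranial library and 0 in the other, and the list median log2 ratio was -2.29. Spdef, a transcription factor of goblet and mucous gland cells, had 468 and 6 counts. Creb3l1, a regulator of secretory capacity, had 509 and 75. Gp2, a zymogen granule glycoprotein, had 10937 and 0 counts and was the most abundant of the list. Fcgbp, a mucus protein that binds gel-forming mucins, had 119 and 1 counts. Xbp1, the factor of the unfolded protein response, differed little, at 5171 and 3157 counts (log2 ratio -0.34). Foxa2 and Foxa3 were low in both, with 7 and 17 and with 13 and 3 counts. Clca1 had 1 and 0 counts, and Agr3 and Atoh1 had none.

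Enzymes that build mucin O-glycans were present in both tumors. Of 34 rows, among them 2 gene IDs for St6galnac2, 31 had enough counts, 7 were called higher in the intracranial library and 0 in the other, and the median log2 ratio was -0.62. Galnt1, which starts O-glycans in most cells, had 19399 and 11718 counts (-0.35), and C1galt1, the core 1 synthase, had 1498 and 1860 (0.69). Of the enzymes that extend or cap the chains, some were called and others were not. Chst4, a sulfotransferase, had 477 and 0 counts, B3gnt3 had 463 and 35, Fut2, the secretor fucosyltransferase, had 204 and 4, and Gcnt3, the core 2 and core 4 enzyme of mucous tissue, had 79 and 0. Galnt6 was also called, with 1098 and 171 counts. Not called were St3gal1 with 5121 and 1697 counts (-1.22), St3gal4 with 1562 and 1247 (0.05), St3gal3 with 479 and 587 (0.67) and Gcnt1 with 475 and 425 (0.22).

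Serous and antimicrobial products of glands did not go the same way by gene and by sum. Of 31 genes, 20 had 0 counts in the extracranial library. Enough counts were present for 24, and 18 were called higher in the intracranial library, with 0 in the other and a median log2 ratio of -4.66. Slpi, a protease inhibitor of mucosal secretions, had 11137 and 14 counts. Wfdc12 had 3167 and 0, the beta-defensin Defb4 had 3130 and 0, and lactotransferrin (Ltf) had 1108 and 1. Yet the list summed to 3895 CPM in the intracranial library and 5018 CPM in the extracranial one, and most of either sum was Lyz2, the lysozyme of macrophages, with 102495 and 124735 counts. Lpo, the lactoperoxidase of serous glands, had 1 and 0 counts, and Pip, Prol1, Odam and Scgb3a2 had 0 in both.

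Ion and water transport genes held both patterns seen among the members. Of 17 genes with enough counts, 6 were called higher in the intracranial library and 0 in the other, with a list median of -1.13. Aqp3, a water channel of basal and squamous epithelium, had 3300 and 8 counts, and Scnn1a, a subunit of the epithelial sodium channel, had 470 and 24. Kcnn4, a potassium channel of epithelia and immune cells, had 4542 and 4736 counts, and Cftr, the chloride channel of glands, had 129 and 37 (-1.42), which was not called.

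The immunoglobulins that Pigr carries were not distributed as Pigr was. Igha, the IgA heavy chain, had 232 counts in the intracranial library and 210 in the other, and Jchain, which joins polymeric immunoglobulins, had 32 and 40. Ighm, the heavy chain of IgM, had 458 and 8069 counts and was called higher in the extracranial library. Of the 12 IgA and plasma cell genes, 10 had enough counts, 2 were called higher in the extracranial library and 0 in the other, and the median log2 ratio was 0.70. Genes of the interleukin 4 and 13 axis, which is known for inducing mucous genes in the airway, were called in 4 of 14 cases, all higher in the intracranial library, with a list median of -0.97. Arg1 had 6734 and 59 counts and Alox15 had 1210 and 2, while Retnlb had 0 in both. Il4ra, with 3015 and 5214 counts (1.17), and Ccl24, with 9 and 41 (2.56), lay toward the extracranial library and were not called. Il33, an epithelial alarmin, had 63165 and 15725 counts (-1.63) and was not called. The cytokines themselves were sparse, with 32 and 34 counts for Il4, 1 and 0 for Il13 and 2 and 0 for Il5.

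Markers of several epithelia were higher in the same library as the members, and their part in the differences was not tested. Simple epithelium markers summed to 241 CPM in the intracranial library and 3.21 CPM in the other, and 10 of 12 were called. Epcam had 938 and 1 counts. Basal cell markers, with 5 of 6 called, stood at 2991 and 1.49 CPM, and stratified squamous markers, with 8 of 10 called, at 23761 and 3.14 CPM. Markers of myoepithelium, the contractile cells around gland acini, stood at 485 and 17.4 CPM with 3 of 5 called. Most of that sum was Krt17, a keratin that basal and squamous cells also make, with 13596 and 0 counts, whereas of the contractile genes Cnn1 (164 and 1) was called and Acta2 (873 and 384) and Myh11 (220 and 40) were not. Salivary acinus markers stood at 90.5 and 2.17 CPM, with 5 of 6 called, 4 of the 10 at 0 in both libraries and Smgc, the submandibular gland protein C, at 649 and 0 counts. Dcpp1, Dcpp2, Dcpp3, Smgc, Prol1 and Pip stand in both this list and the serous one.

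Other tissues with secretory epithelium gave mixed values. For lung alveolus, Sftpb, Sftpa1 and Nkx2-1 had 0 counts in both and Sftpc had 1 in each, and the list stood at 53.7 and 54.5 CPM. For stomach, the list stood at 0.115 and 0.710 CPM, with Gkn1 at 0 and 17 counts, and for intestine Cdx2 had 0 in both while Lgals4 had 452 and 229. Club cell markers summed to 167 and 176 CPM, but 3 of 5 were called higher in the intracranial library and their median log2 ratio was -3.08. Cyp2f2 had 2195 and 2 counts, Hp 481 and 22 and Gabrp 33 and 0, while most of the extracranial sum was Cbr2, with 3059 and 4635 counts, and Scgb3a2 had 0 in both. Ciliated cell markers, at 12.2 and 8.59 CPM, had no called gene, and Foxj1 had 32 and 29 counts. The olfactory and Bowman gland markers stood at 28.5 and 1.79 CPM, with 3 of 7 called. Most of the intracranial sum was Cyp2a5, at 22.5 CPM, with 781 and 0 counts. Omp had 42 and 43 counts (0.41) and was not called, Cyp2g1 had 9 and 0 and Ugt2a1 had 0 in both.

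Cells that secrete Chil3 without being gland cells were also measured. Neutrophil markers stood at 1027 CPM in the intracranial library and 149 CPM in the other, with 5 of 7 called. Most of that sum was S100a8 (8970 and 9 counts) and S100a9 (14455 and 13), which squamous epithelium also makes. The other called genes were Retnlg with 306 and 0 counts, Cxcr2 with 113 and 4 and Camp with 58 and 2. Mmp9, with 11078 and 2429 counts, and Csf3r, with 692 and 1542, were not called. Ly6g (4 and 1), Ngp (9 and 0) and Elane (1 and 0) were near background. Macrophage markers went the other way, at 2499 and 7576 CPM, with Ccr2 at 2065 and 14296 counts as the 1 called gene, and their part in the level of Chil3 was not tested. Of the cells at the labelled site, Schwann cell markers summed to 257.3 and 255.1 CPM, with 3 of 10 called higher in the intracranial library and 1, Egr2, in the other, and a median log2 ratio of -1.49. Sensory ganglion markers stood at 77.2 and 10.9 CPM, but the median log2 ratio of the list was -0.13. Calca gave most of the intracranial sum, at 2484 and 39 counts, and was the 1 called gene. Prph, with 97 and 181 counts (1.28, 0.91 to 1.65), and Avil, with 81 and 67, were not called. Scn10a and Trpv1 had 5 and 2 counts in the intracranial library.

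**Figure D4:**
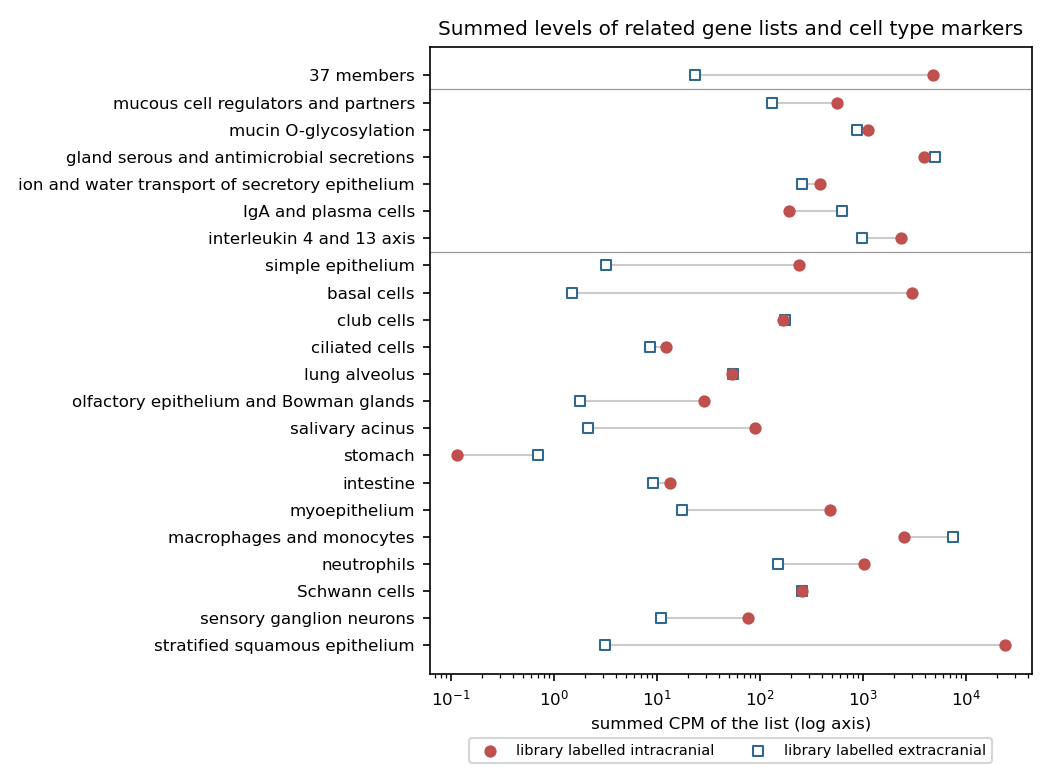
Summed levels in CPM, on a log axis, of the 37 members, of 6 related gene lists and of 15 cell type marker lists, with filled circles for the intracranial library and open squares for the extracranial library. The members (4749 and 23.6), the basal list (2991 and 1.49) and the stratified squamous list (23761 and 3.14) are far apart, whereas the sums of the club cell, alveolar and Schwann lists nearly coincide, although single genes of the club cell and Schwann lists were called.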

How the data were processed

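Bulk poly(A) RNA had been sequenced as single reads from 2 fresh-frozen mouse tumors. The authors deposited raw read counts per Ensembl gene, made by aligning with STAR (version 2.7.9a per the submitters' processing notes, which name the build GRCm39) and counting with featureCounts. The strand setting and the treatment of reads with several alignments are not given in the sources used here. Symbols, exon lengths and gene order came from the older GENCODE release M21 (GRCm38), and no gene coordinates of the counted build were used. A symbol was found for 52135 of the 55416 genes, and a gene without one could not enter the set.

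The members and all lists were chosen with earlier results of these data known. Samples were grouped by the localization label, with 1 library each. Library sizes were adjusted by the TMM method of edgeR 4.0.16 in R 4.3.3 (factors 1.006 and 0.994), and CPM used the scaled library sizes. Levels carry Clopper-Pearson 95% intervals and ratios conditional exact binomial 95% intervals (SciPy 1.17.1). The reads carried no molecular identifiers and may repeat a molecule, so intervals and floors cover counting error only. A floor of 3 counts is 0.0863 CPM in the intracranial library and 0.112 CPM in the other. Counts of 3 or fewer were set to 3 for medians, and a fold against 0 counts was computed against 3. With 1 library per location no model across genes could be fitted and no p-value is given. The procedures were tested on simulated counts.

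Every member was to be named with its counts, and of each list the highest genes, called genes and absent defining genes. Genes of a list named beyond these, such as Foxa3, Cftr or Il4, were chosen after their values were seen, and some genes of the lists are not reported here by name. Promoters were read from RefSeq sequences and aligned with Biopython 1.88. Alternatives were DESeq2 (version 1.42.0) size factors, total counts, upper quartile scaling, other count minimums, other call limits, a prior count and CPM per kilobase of exon.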

Additional observations from a re-analysis of the deposited data

How the results depend on the processing

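No paired analysis was possible because only 1 library stood for each label, and none could be left out. Between 17 members (100 or more counts) and 22 (interval beyond 2-fold) were called higher in the intracranial library, and 0 in the other under every setting. With DESeq2 or upper quartile scaling Muc20 was lost, which left 19. The ratio alone beyond 4-fold gave 21 by adding Scgb3a1, and total counts or no count filter gave 20. Scaling shifted the median over 15582 genes by -0.02 to 0.04 and changed the sign of no member ratio. The member median was -5.42 to -5.36 under the scalings, -7.13 with 100 or more counts, since fewer genes enter, and -5.72 with 2 counts added to each value. The summed level in the intracranial library was 4724 CPM with DESeq2 size factors, 4777 with total counts and 4687 with the upper quartile, outside its counting interval because that interval is narrow, and 2337 without Muc5b. In the extracranial library it was 3.85 CPM without Aqp5. Per kilobase of exon, Tff2 moved from rank 4 to 1 and Muc5b from 1 to 4. Genes under about 10 counts were too shallow for a call.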

Other observations

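Relatives of the BPIF and chitinase genes that the rule on names left out, chosen after their values were seen, did not all go the same way. Chit1, the chitotriosidase, had 2351 counts in the intracranial library and 26 in the other, with a log2 ratio of -6.12 (-6.74 to -5.57). Lbp, the lipopolysaccharide-binding protein, had 151 and 19 counts. Pltp, the phospholipid transfer protein, which shares the BPI fold but circulates in plasma, had 935 and 2616 counts and was higher in the extracranial library (1.86, 1.75 to 1.97). Bpi itself had 0 counts in both. Ovgp1, the oviduct glycoprotein, had 140 and 40 counts, and Chid1, a chitinase-domain protein of many tissues, had 972 and 1090.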
